A study of Mus musculus with 14 samples.

Results

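Collagens are the trimeric proteins that build most of the extracellular matrix. The 42 collagen genes described here were the protein-coding genes of GENCODE M21 whose symbol is Col, a number, a and a number, without Col4a1 and Col4a2, the collagen chains that define early basement membranes. Accessible DNA around them was mapped by ATAC-seq, a transposase-based assay, during conversion of mouse embryonic stem (ES) cells towards primitive endoderm (PrE), the blastocyst lineage that gives rise to yolk sac endoderm. Peaks of 14 libraries were merged into 124598 regions wherever they overlapped by at least 1 bp. Of these, 84402 lay within 50 kb of the nearest transcription start site (TSS) of a protein-coding gene, and 196 of them were nearest to 1 of the 42 collagen genes. Of the 42 genes, 39 had at least 1 region.

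All libraries came from KH2 ES cells (strain label C57BL/6) that carry a TRE:GATA6-DsRed2 transgene, a TET-responsive element that drives GATA6 and the reporter DsRed2 when doxycycline (Dox) is given. Cells at 0 h were grown in 2i, a serum-free medium with 2 kinase inhibitors and LIF, without Dox. Cells of 2, 4 and 8 h were in serum medium with LIF and 1 µg/mL Dox throughout, and those of 16, 24 and 48 h received Dox for 12 h and then the same medium without it. Each time point had 2 libraries of 50000 unsorted cells. The labels name no separate cultures, and the study describes replicates of its experiments in general as performed independently. Change of medium and induction of GATA6 began together, so their contributions cannot be told apart. The lists held 55588 to 65073 peaks per library, with no read counts. Read totals, which the study gives, were not used here. Of regions near 8 PrE markers such as Gata4, Sox17 and Pdgfra, 39 of 107 were gained (36.4%) and 9 were lost (8.41%) by 48 h, where 14.1% of all assigned regions were gained and 14.4% were lost. For 8 ES cell markers such as Nanog and Esrrb, 29 of 139 were gained (20.9%) and 24 were lost (17.3%). For 8 fibroblast markers, which would mark other cells in a culture, 6 of 29 regions were gained (20.7%) and 5 were lost (17.2%), and Fap had none.

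Collagen chains fall into structural families. Fibrillar collagens (types I, II, III, V, XI, XXIV and XXVII) pack into fibrils, and FACIT collagens (such as IX, XII, XIV and XVI) decorate the fibril surface. Network-forming collagens such as types IV and VIII make sheets, type VI makes beaded filaments, type VII anchors epithelium to the underlying stroma, and transmembrane collagens (XIII, XVII, XXIII and XXV) sit in the cell surface. The multiplexins, types XV and XVIII, are basement membrane proteoglycans, and type XVIII is the source of the fragment endostatin. PrE and its parietal derivative are known for secreting a thick basement membrane rich in collagen IV and laminin.

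The regions below carry the patterns described in the text. Each is the central 200 bp of a region on the plus strand of GRCm38, and capitals mark the AP-1 word TGANTCA or one of the GATA words. The latter, the core bound by GATA factors, were AGATAA, also with T in place of its first letter or G in place of its last, on either strand. None of these words contains another. The first 3 had a GATA word and were called from the earliest times through 48 h.
Col6a1, chr10:76752975-76753174: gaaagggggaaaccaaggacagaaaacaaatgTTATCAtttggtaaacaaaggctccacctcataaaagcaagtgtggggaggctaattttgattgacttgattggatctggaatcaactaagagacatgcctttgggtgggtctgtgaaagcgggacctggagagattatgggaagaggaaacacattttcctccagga
Col6a4, chr9:106078327-106078526: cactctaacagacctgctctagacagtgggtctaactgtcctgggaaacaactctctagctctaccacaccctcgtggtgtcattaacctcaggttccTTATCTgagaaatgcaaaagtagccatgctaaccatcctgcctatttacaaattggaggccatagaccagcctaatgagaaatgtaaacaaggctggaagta
Col13a1, chr10:61975639-61975838: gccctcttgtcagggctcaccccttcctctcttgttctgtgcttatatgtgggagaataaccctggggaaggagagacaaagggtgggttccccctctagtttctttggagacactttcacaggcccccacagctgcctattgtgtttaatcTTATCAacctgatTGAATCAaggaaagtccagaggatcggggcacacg
The next was also gained, from 16 h, but holds no such word.
Col17a1, chr19:47658965-47659164: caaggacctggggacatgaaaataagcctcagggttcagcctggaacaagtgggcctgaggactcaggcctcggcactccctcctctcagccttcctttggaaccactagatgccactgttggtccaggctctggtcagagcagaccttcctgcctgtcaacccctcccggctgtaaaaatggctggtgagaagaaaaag
A pair of regions were called in both 0 h libraries and in no later library.
Col6a5, chr9:105968097-105968296: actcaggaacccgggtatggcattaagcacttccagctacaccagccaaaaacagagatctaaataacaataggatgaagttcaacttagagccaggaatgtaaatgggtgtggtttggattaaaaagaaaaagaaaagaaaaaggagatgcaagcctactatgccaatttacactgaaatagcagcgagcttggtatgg
Col6a4, chr9:106115799-106115998: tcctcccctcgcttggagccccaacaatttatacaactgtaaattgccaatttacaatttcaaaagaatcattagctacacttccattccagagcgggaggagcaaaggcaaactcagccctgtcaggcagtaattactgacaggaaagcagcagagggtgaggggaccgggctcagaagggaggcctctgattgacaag
The next was called in both libraries at 2 and 4 h and in none at 0, 16, 24 or 48 h.
Col6a3, chr1:90805571-90805770: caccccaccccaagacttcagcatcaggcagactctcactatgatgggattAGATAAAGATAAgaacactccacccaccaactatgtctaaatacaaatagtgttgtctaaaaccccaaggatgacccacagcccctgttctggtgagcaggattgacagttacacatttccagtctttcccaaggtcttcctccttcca
The last pair lie at start sites and were added after their calls were seen. The Col7a1 region was called from 2 to 16 h, and the window for Col16a1 is the 200 bp before its TSS, where a region was gained.
Col7a1, chr9:108953019-108953218: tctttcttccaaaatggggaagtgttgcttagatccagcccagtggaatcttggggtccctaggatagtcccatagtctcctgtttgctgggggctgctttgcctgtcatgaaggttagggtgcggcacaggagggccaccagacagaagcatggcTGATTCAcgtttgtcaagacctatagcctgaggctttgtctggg
Col16a1, chr4:130047640-130047839: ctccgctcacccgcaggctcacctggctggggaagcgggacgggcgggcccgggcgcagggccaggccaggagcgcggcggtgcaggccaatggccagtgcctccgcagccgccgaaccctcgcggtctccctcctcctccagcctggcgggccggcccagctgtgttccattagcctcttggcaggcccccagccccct

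Accessible regions were spread unevenly over the collagen genes. Col18a1 had 23 regions, Col14a1 had 20 and Col13a1 had 15, which together made 58 of the 196, whereas the median gene had 3. Col4a6, a chain of specialised basement membranes, Col9a1, a cartilage collagen, and Col10a1, the collagen of hypertrophic cartilage, had none in any library, and 9 genes had 1. The median distance to the TSS was 17626 bp, against 11115 bp over all assigned regions. Of the collagen regions, 105 lay within the gene to which they were assigned, 4 lay within another gene and the others were intergenic. A library called between 66 and 109 of the 196 regions, with a mean of 71.5 ± 7.78 (SD, n = 2) at 0 h. That mean was 101 ± 11.3 (SD, n = 2) at 16 h and had returned to 72.5 ± 2.12 (SD, n = 2) by 48 h. At 16 h these were 0.228% of the assigned regions called, against 0.180% at 0 h and 0.181% at 48 h, so the collagen share was also highest at 16 h, in libraries that had the most peaks.

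**Figure D1:**
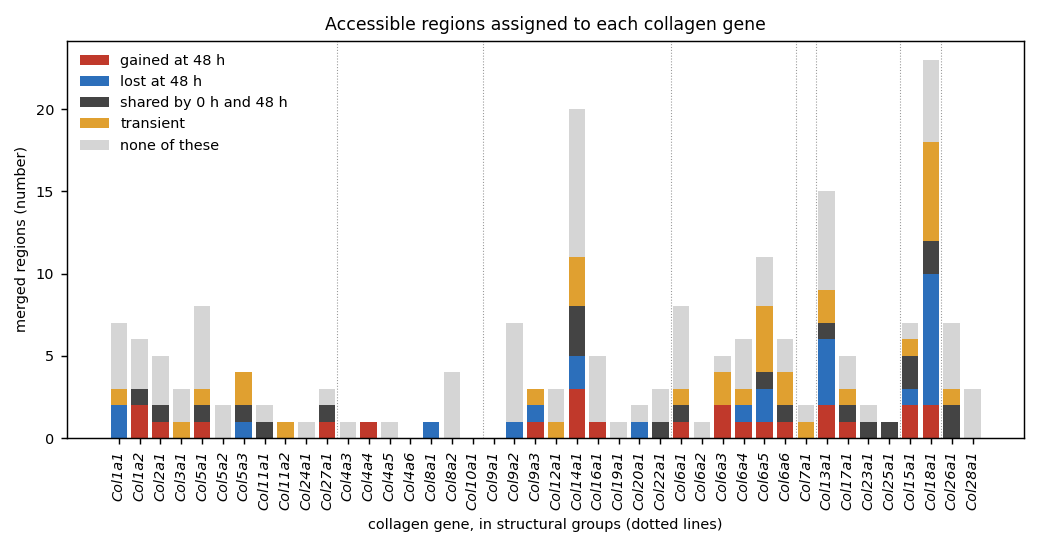
Number of merged accessible regions assigned to each of the 42 collagen genes, with genes on the horizontal axis in structural groups and bars divided by the class of region at 48 h. Col18a1, Col14a1 and Col13a1 hold 58 of the 196 regions, and Col18a1 holds 8 of the 25 lost.

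Few collagen start sites were called throughout the time course. An assigned region whose centre lay within 1 kb of the TSS was found for 26 of the 42 genes, with 29 regions in all. Of these 29, 5 were called in all 14 libraries (17.2%), at Col5a1, Col11a1, Col18a1, Col22a1 and Col23a1, whereas 53.1% of all start-site regions of protein-coding genes were. In addition, 12 of the 29 were called in neither 0 h library (41.4%), against 22.8% of all start-site regions. Col5a1, which nucleates fibrils, Col11a1, a cartilage fibrillar chain, and Col23a1, a transmembrane collagen, thus had an open start site before and after induction, as had Col5a3 and Col15a1 at 0 h and 48 h. Several chains abundant in connective tissue had few calls or none there. Col1a2 had its start-site region called in 1 library at 8 h and 1 at 24 h, Col5a2 had 2 regions called in 1 library each, and Col1a1, Col3a1 and Col2a1 had no region centred within 1 kb of the TSS. In Col1a1, however, an exonic region centred 1204 bp past the TSS (chr11:94936815-94938041) was called in 13 of 14 libraries, all but 1 at 0 h. The region over the shared head-to-head start of Col4a3 and Col4a4 (chr1:82586751-82587646) was called in 1 library, at 16 h, and that of Col4a5 in 1 library, at 48 h.

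A start-site region was gained at 48 h for 1 gene (3.45% of the 29 regions, against 8.19% of all start-site regions) and lost for 2 (6.90% against 4.06%). At Col16a1, a FACIT collagen, the region chr4:130047522-130048189 over the first exon was called in 0 libraries at 0, 2 and 4 h and in both at every later time. Its score ranked at percentiles 2.82 and 14.4 of the 2 lists at 8 h, 34.7 and 41.5 at 16 h, 18.3 and 43.5 at 24 h and 44.5 and 50.8 at 48 h, where percentile 100 is the highest score of that library's list. The calls rose with time (adjusted p = 0.0130, exact permutation test over the 14 libraries). At Col20a1, another FACIT collagen, chr2:180985665-180986563 was called in both libraries at 0 h, in 1 each at 2 and 4 h and in none later, and the calls fell with time (adjusted p = 0.0451, exact permutation test). At Col8a1, a network collagen of vessel walls and cornea, chr16:57754494-57755505 was called in both libraries at 0, 2, 4 and 16 h, in 1 at 8 and 24 h and in none at 48 h, which did not pass the test (adjusted p = 0.0646, exact permutation test). The Col6a2 start site was called in 1 of 2 libraries at 0 h and in both at every later time.

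**Figure D2:**
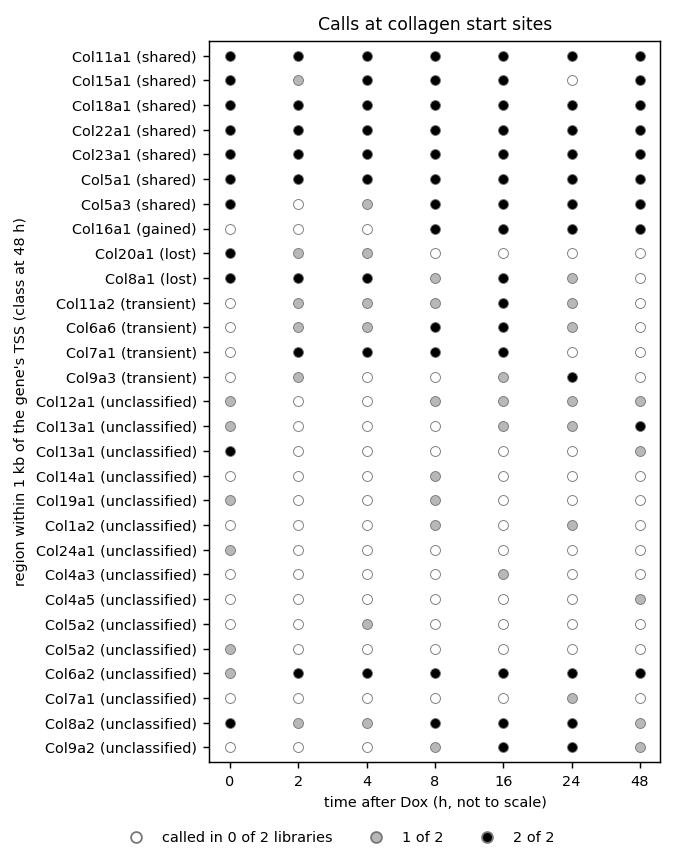
Calls at the 29 regions within 1 kb of a collagen TSS, 1 row per region and 1 column per time point in hours after Dox, with circles white for 0, grey for 1 and black for 2 of 2 libraries. The 5 regions called in all 14 libraries stand among the top rows, Col16a1 turns black at 8 h, and Col7a1 is black from 2 to 16 h.

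To follow the time course, a region was called gained at a time point when both of its libraries and neither 0 h library had it, and lost in the reverse case. In bulk libraries, opening in fewer cells and weaker opening in each cell cannot be told apart. Collagen regions gained numbered 18 at 2 h (9.18%), where 7.88% of all assigned regions were gained. They numbered 16 at 4 h (8.16% against 9.12%) and 17 at 8 h (8.67% against 10.3%). At 16 h 30 were gained (15.3% against 12.6%), at 24 h 25 (12.8% against 11.4%) and at 48 h 24 (12.2% against 14.1%). Gains of collagen regions were thus close to those of all genes throughout. Their highest count came at 16 h, but with the 50000 highest ranked peaks of each library 22 were gained at 16 h, 27 at 24 h and 22 at 48 h, so the 16 h maximum was not kept at equal list length.

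Collagen regions lost numbered 7 at 2 h (3.57%), where 5.61% of all assigned regions were lost, and 7 at 4 h (3.57% against 6.34%). At 8 h 11 were lost (5.61% against 8.27%) and at 16 h 12 (6.12% against 8.00%). The count then reached 21 at 24 h (10.7% against 11.0%) and 25 at 48 h (12.8% against 14.4%). Shared regions, present in the 4 libraries of 0 h and 48 h, numbered 23 (11.7%), against 23.4% of all assigned regions. Only regions called at 0 h can be lost or shared, and 105 collagen regions (53.6%) were in neither 0 h library, against 46.2% of all. At 48 h, lost and shared regions numbered 25 and 23 for collagen genes, and 12124 and 19730 for all genes. The lower lost share is thus one of all regions and not of those present at 0 h. Over 1 kb from the TSS the shared share was 9.58% for collagen genes and 14.6% for all genes, and at start sites it was 24.1% and 59.9%. An exact two-sided test of 2 against 2 libraries cannot go below p = 0.333, and these counts were not tested.

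**Figure D3:**
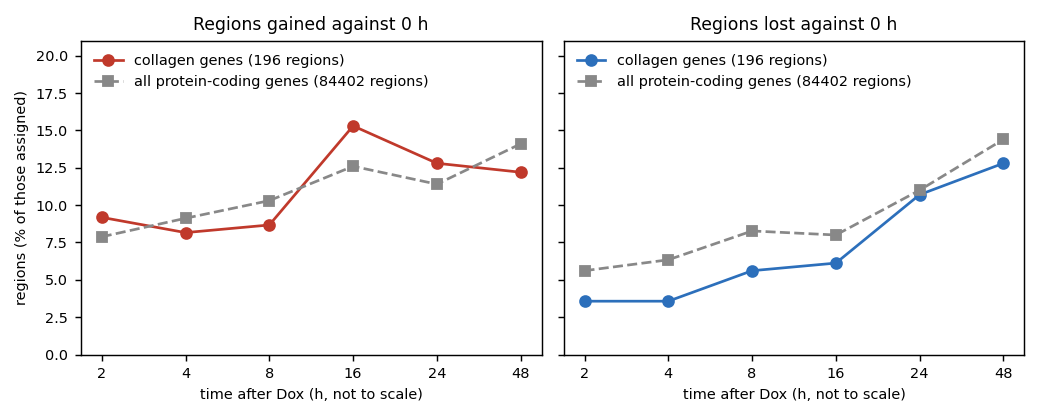
Percent of regions gained (left) and lost (right) against 0 h at each time point in hours after Dox, for the 196 collagen regions (coloured line) and all 84402 regions assigned to protein-coding genes (grey dashed line). The collagen line for gains peaks at 15.3% at 16 h, a maximum that moves to 24 h with equal list lengths, and the line for losses lies under the grey line at every time point and reaches 12.8% at 48 h. Only regions called at 0 h can be lost, and 53.6% of collagen regions against 46.2% of all were called in neither 0 h library.

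A test per region used all 7 time points. The ranks of time of the libraries that called a region were compared with every other choice of as many libraries, in an exact two-sided permutation test adjusted by the Benjamini-Hochberg method over 79559 regions called in 2 to 12 libraries. Of the 134 collagen regions in that range, 14 rose with time (10.4%) and 13 fell (9.70%), where 12.1% of all regions tested rose and 12.3% fell. Among regions assigned to protein-coding genes, 12.5% rose and 10.6% fell. A region called in exactly 2 or 12 libraries could reach no p below 0.0220 in this test, which adjusted to 0.0541. Such regions could not pass and stay in these counts of regions tested. The 14 that rose were among the 24 gained at 48 h and the 13 that fell among the 25 lost, which both use the same calls. The rising regions belonged to 9 genes, namely Col1a2, Col4a4, Col5a1, Col6a4, Col13a1, Col14a1, Col16a1, Col17a1 and Col18a1, and the falling ones to Col1a1, Col5a3, Col6a5, Col9a2, Col9a3, Col14a1, Col15a1, Col18a1 and Col20a1. Left out in turn, the 14 libraries gave 12 to 26 rising and 9 to 17 falling collagen regions, with 22 and 26 rising when 0 h replicate 1 or 0 h replicate 2 was absent. Over all regions 13577 and 13785 then rose, against 9609 with all 14 libraries, so the increase was not particular to collagen regions.

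By gene, 17 of the 39 with a region (43.6%) had at least 1 gained at 48 h and 12 (30.8%) at least 1 lost, against 40.4% and 41.6% of all protein-coding genes with a region. Col6a4, Col6a5, Col9a3, Col13a1, Col14a1, Col15a1 and Col18a1 had both. A further 10 genes had gained regions alone and 5 had lost regions alone, and 17 genes had regions of neither kind.

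Among fibrillar collagens, 5 of 42 regions were gained at 48 h (11.9%), 3 were lost (7.14%) and 6 were transient (14.3%), against 14.1%, 14.4% and 12.4% of all assigned regions. Transient regions were absent at 0 h and 48 h, and both libraries of an intermediate time point had them. Col1a2, the second chain of type I collagen, had the clearest gains. Its upstream region chr6:4464979-4465835, 39407 bp before the TSS, was found in no library from 0 to 4 h, in 1 at 8 h and in both from 16 h. The score percentiles were 6.96 in the 8 h library, 53.9 and 29.3 at 16 h, 48.0 and 53.9 at 24 h and 89.6 and 86.5 at 48 h. Calls rose with time (adjusted p = 0.0130, exact permutation test), and the central 200 bp held 2 GATA words. A second region, chr6:4549678-4550110, lay 45080 bp past the TSS and beyond the gene's end. It was called in 0 libraries from 0 to 8 h and in both at 16, 24 and 48 h, with 4 GATA words, and rose likewise (adjusted p = 0.0130, exact permutation test). The neighbouring region chr6:4550297-4551100 was called in all 14 libraries.

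At 48 h, Col1a1, the partner chain in type I collagen, had no gained and 2 lost regions. The region 34864 bp upstream (chr11:94901064-94901655) was called in both 0 h libraries, in 1 at 2 h and 1 at 4 h and in none later, and fell with time (adjusted p = 0.0451, exact permutation test). The region 23737 bp upstream (chr11:94912059-94912914) was called in both libraries at 0, 2, 4, 16 and 24 h, in 1 at 8 h and in none at 48 h (adjusted p = 0.177, exact permutation test). Col1a1 also had gains at earlier times. The region 19605 bp upstream (chr11:94916350-94916887) was in neither 0 h library, in both from 2 to 24 h and in 1 at 48 h. Its percentiles were 85.0 and 83.2 at 8 h and 29.6 in the 48 h library. A transient region 7285 bp upstream (chr11:94928644-94929234) was called in both libraries at 16 and 24 h. KH2 cells are known as a line with a recombinase target site downstream of Col1a1 for inducible transgenes, and whether the GATA6 transgene sits there is not given in the sources used here. Both lost regions lay upstream of the gene. Col5a1 gained a region 15182 bp upstream, called in 1 library at 24 h and both at 48 h (adjusted p = 0.0451, exact permutation test), and Col5a3 lost an exonic one.

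Of network-forming collagens, Col4a4 gained its only region, chr1:82554864-82555635 in an intron. It was called in 0 libraries from 0 to 8 h and in both at 16, 24 and 48 h (adjusted p = 0.0130, exact permutation test). Its percentiles were moderate, at 27.1 and 53.2 at 16 h, 19.3 and 33.2 at 24 h and 23.7 and 33.9 at 48 h. Col4a4 encodes a chain that joins Col4a3 and Col4a5 products in the mature kidney glomerular basement membrane. Col4a3 and Col4a5 had 1 region each, neither gained nor lost, and Col4a6 had none.

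The beaded-filament genes held 6 gained (16.2%) and 3 lost (8.11%) regions of 37, and 10 transient ones (27.0%), against 14.1%, 14.4% and 12.4% of all assigned regions. The earliest settled gain of all collagen genes lay 26907 bp upstream of Col6a1, at chr10:76752687-76753462. It was called in neither 0 h library and in both at every later time. Its score percentiles were 74.4 and 86.8 at 2 h, 94.5 and 93.7 at 4 h, 94.6 and 96.1 at 8 h, 93.9 and 89.0 at 16 h, 85.3 and 84.9 at 24 h and 21.8 and 44.5 at 48 h. The region therefore ranked high within each list from 2 to 24 h and lower in both 48 h lists. Called in 12 libraries, it had the lowest adjusted p open to it (0.0541, exact permutation test), so the trend test could not call it.

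Col6a4, Col6a5 and Col6a6, which encode chains that can stand in for the third chain of type VI collagen, lie side by side on chromosome 9. In Col6a4 an intronic region, chr9:106078279-106078575, was called in no library at 0 and 2 h and in both from 4 h, and rose with time (adjusted p = 0.0130, exact permutation test). In Col6a5 the region chr9:105970795-105972534, 11022 bp upstream, was called in both libraries from 0 to 16 h and in none at 24 and 48 h. Its percentiles were 39.2 and 68.5 at 0 h, 74.9 and 76.1 at 2 h, 71.9 and 72.5 at 4 h, 50.6 and 58.2 at 8 h and 33.1 and 41.4 at 16 h, and the calls fell with time (adjusted p = 0.0130, exact permutation test). Next to it, chr9:105970270-105970693 was called in both libraries at 4 and 8 h alone. The gained region of Col6a5, chr9:105921985-105922262, was called in both 48 h libraries and in no other, at percentiles 16.8 and 5.33. With 2 calling libraries its adjusted p could be no lower than the 0.0541 found (exact permutation test). Col6a3 gained 2 regions, both called at 48 h alone, of which the intronic chr1:90824867-90825301 held 2 GATA words.

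The transmembrane collagens held 3 gained (13.0%) and 4 lost (17.4%) regions of 23, near the 14.1% and 14.4% of all assigned regions. The 4 losses and 2 of the gains were at Col13a1, which is known at neuromuscular junctions. Its gained regions lay near the start site and were gained at different times. The region chr10:61975507-61975971, 3369 bp past the TSS, was present in both libraries from 4 h on, with percentiles of 63.8 and 69.0 at 4 h, 69.9 and 76.8 at 8 h, 71.4 and 82.0 at 16 h, 52.5 and 48.9 at 24 h and 35.5 and 40.5 at 48 h. The region chr10:61977079-61977859, 1639 bp past the TSS, followed from 16 h on in both libraries. Both rose with time (adjusted p = 0.0130 each, exact permutation test). The 4 lost regions lay 12758, 21068, 33454 and 40852 bp upstream, and none passed the test. Those at 21068 and 33454 bp, called in 12 and 2 libraries, could not pass it. Of the 4, the one with the highest median percentile, chr10:61999590-62000761, was called in both libraries from 0 to 24 h and in neither at 48 h. Its percentiles were 24.2 and 26.6 at 0 h, 73.7 and 72.9 at 2 h and 11.5 and 23.4 at 24 h, and its highest, 85.4, was at 4 h. It thus ranked lower at 0 h than at 2 h (adjusted p of its calls = 0.0541, exact permutation test). At Col17a1, the hemidesmosome collagen, the intronic region chr19:47658965-47659165 was called in both libraries at 16, 24 and 48 h and rose with time (adjusted p = 0.0130, exact permutation test).

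The multiplexins had 9 of 30 regions lost at 48 h (30.0%) and 4 gained (13.3%), against 14.4% and 14.1% of all assigned regions, and 8 of the 9 losses were at Col18a1. This gene had 8 lost, 2 gained, 2 shared and 6 transient regions of 23. The number of its regions called per library was 11 and 12 at 0 h, 15 and 15 at 2 h, 13 and 13 at 4 h, 13 and 10 at 8 h, 14 and 17 at 16 h, 8 and 10 at 24 h, and 4 and 4 at 48 h. The 48 h libraries were thus lowest, and the 8 lost and 6 transient regions are by definition in neither of them. Over all assigned regions a mean of 39747 was called at 0 h and of 40111 at 48 h. The Col18a1 count was read after the values were seen and carries no test. The lost regions did not close together. The region 31037 bp upstream (chr10:77197407-77197762) was called at 0 h alone, and chr10:77198988-77199688, 32790 bp upstream, was called in both libraries through 16 h and in none after. Its percentiles were 82.8 and 78.2 at 0 h, 97.2 and 95.2 at 2 h, 90.4 and 91.9 at 4 h, 82.1 and 76.4 at 8 h and 62.0 and 71.0 at 16 h (adjusted p = 0.0130, exact permutation test). The intronic region chr10:77164409-77165716, 1485 bp past the TSS, was lost only at 48 h. Of the 23 regions, 5 fell with time and 2 rose.

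The 2 gained regions of Col18a1 lay in introns among the lost ones. The first, chr10:77154436-77155054, was called in 0 libraries from 0 to 8 h and in both from 16 h, with percentiles of 44.9 and 51.8 at 16 h, 42.0 and 59.8 at 24 h and 80.3 and 76.9 at 48 h (adjusted p = 0.0130, exact permutation test). It held 2 GATA words. The second, chr10:77147198-77147605, was called in both libraries from 24 h and held an AP-1 word and no GATA word. The Col18a1 start site, by contrast, was called in all 14 libraries. Col15a1 lost a region 46686 bp upstream (chr4:47161204-47161745), called in both libraries from 0 to 8 h and in none later (adjusted p = 0.0130, exact permutation test). Its gained regions, chr4:47244172-47244469 and chr4:47251020-47251319, ranked low, with median percentiles of 8.19 and 14.1.

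FACIT collagens held 5 gained and 5 lost regions of 44 (11.4% each), against 14.1% and 14.4% of all assigned regions. Col14a1 contributed 3 gains, all upstream, at 15838, 41499 and 41787 bp from the TSS, and all rose with time with adjusted p from 0.0130 to 0.0451 (exact permutation test). None held a GATA word in its central 200 bp. Their median percentiles were 28.5, 54.1 and 33.1, and those of its 2 losses were 56.4 and 92.8. The intronic lost region chr15:55317846-55318553 stood at percentiles of 93.8 and 90.2 at 0 h, 96.5 and 97.4 at 2 h, 94.1 and 95.6 at 4 h, 92.7 and 92.8 at 8 h, 76.0 and 81.1 at 16 h and 18.3 and 19.3 at 24 h, and was in neither 48 h list. It was called in 12 of 14 libraries, where no pattern of calls can pass the test (adjusted p = 0.0541, exact permutation test). Col9a2 lost an exonic region 3539 bp past the TSS, chr4:121042453-121043395, called in both libraries at 0, 2 and 4 h and in none later (adjusted p = 0.0130, exact permutation test).

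**Figure D4:**
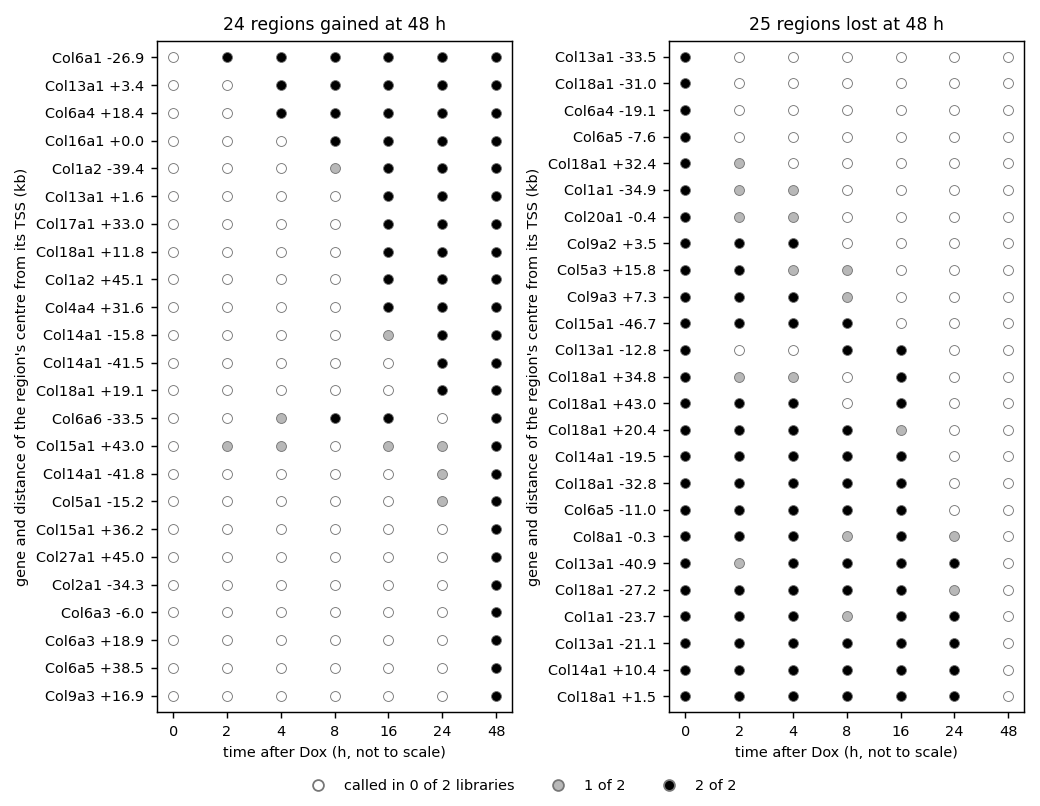
Calls of the 24 collagen regions gained (left) and the 25 lost (right) at 48 h, 1 row per region labelled by gene and distance of its centre from the TSS in kb, 1 column per time point, with circles white, grey and black for 0, 1 and 2 of 2 libraries. Of the gained regions 11 were settled only at 48 h, and 4 of the lost regions were absent from 2 h on.

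The order of events differed from region to region. Of the 24 gained regions, 1 was called in both libraries of every time point from 2 h on, 2 from 4 h, 1 from 8 h, 6 from 16 h, 3 from 24 h and 11 at 48 h alone or for good from then. Over all genes the last group was 43.7% of gained regions, against 45.8% here, and the 16 h group 14.7%, against 25.0% here. The groups of 2, 4, 8 and 24 h were 8.13%, 8.99%, 7.82% and 16.6% over all genes, against 4.17%, 8.33%, 4.17% and 12.5% here. Of the 25 lost regions, 4 were absent from every library from 2 h on, 1 from 4 h, 3 from 8 h, 3 from 16 h, 7 from 24 h and 7 from 48 h. These were 16.0%, 4.00%, 12.0%, 12.0%, 28.0% and 28.0% of the lost regions, against 20.7%, 9.07%, 11.5%, 7.83%, 23.5% and 27.4% over all genes. All of these classes rest on 2 libraries at each time and were not tested against each other.

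Transient regions numbered 33 (16.8%), where 12.4% of all assigned regions were transient. They belonged to 19 genes. Of the 33, 16 were first present in both libraries at 2 h (48.5%, against 47.0% over all genes). A further 4, 4, 7 and 2 followed at 4, 8, 16 and 24 h, which made 12.1%, 12.1%, 21.2% and 6.06%, against 17.2%, 13.2%, 18.4% and 4.19% over all genes. Within 1 kb of a TSS 4 of 29 collagen regions were transient (13.8%), against 2.91% for all genes, and over 1 kb from it 17.4%, against 14.7%. The 4 were at Col6a6, Col7a1, Col9a3 and Col11a2, with median score percentiles of 20.7, 76.7, 8.21 and 8.76. All but that of Col7a1 had medians under the 24.1 of all transient collagen regions, and these were also called in 1 of 2 libraries at other time points. That of Col6a6, however, stood at percentiles 50.9 and 56.2 at 16 h. Ranks of transient start sites over all genes were not examined, and the difference in shares was not tested.

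The start site of Col7a1, the anchoring fibril collagen, was the highest ranked transient region. The region chr9:108952584-108953653 was absent from both 0 h lists, stood at percentiles of 92.3 and 91.3 at 2 h, 89.8 and 89.4 at 4 h, 57.8 and 64.0 at 8 h and 17.6 and 29.1 at 16 h, and was absent from all 4 lists of 24 and 48 h. All 8 libraries of 2 to 16 h thus had it, and none of the other 6. Its centre lay 467 bp before the TSS, and the central 200 bp, printed above, hold 1 AP-1 word. That word was found in 33.3% of transient collagen regions, against 30.1% of transient regions over all genes. A trend test reads rises and falls only and did not call this pattern (adjusted p = 0.498, exact permutation test). The same sequence of calls, from 2 to 16 h, was seen for 2 distal regions of Col18a1, chr10:77121354-77121638 and chr10:77201806-77202255, each also with 1 AP-1 word. The former held 1 GATA word as well. At Col6a6 a region 11302 bp upstream was called in both libraries at 2, 4, 8 and 24 h and in 1 at 16 h. In Col6a3, chr1:90805420-90805922 and chr1:90834678-90835181 were called in both libraries at 2 and 4 h and in none from 16 h on.

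Because GATA6 is the induced factor, GATA words were counted in the central 200 bp of each class. Of gained collagen regions 14 of 24 held one (58.3%), of transient regions 15 of 33 (45.5%), of lost regions 6 of 25 (24.0%) and of shared regions 4 of 23 (17.4%). Over all assigned regions these shares were 54.4%, 50.9%, 20.9% and 16.4%, so the order of the classes was the same and the collagen regions lay close to it. Control words with the inner letters changed (AAGTAA and its counterparts with the same changes at either end) were found in 25.0% of gained, 21.2% of transient, 28.0% of lost and 17.4% of shared collagen regions. The AP-1 word TGANTCA was found in 11 of 33 transient (33.3%), 3 of 24 gained (12.5%), 3 of 25 lost (12.0%) and 0 of 23 shared collagen regions, against 30.1%, 6.88%, 7.95% and 4.33% of all assigned regions of these classes. In the whole region instead of the central 200 bp, 70.8% of gained and 72.0% of lost collagen regions held a GATA word, against 70.7% and 51.5% over all assigned regions, and 50.0% and 56.0% of these collagen regions held a control word. Lost regions had a median width of 747 bp and gained regions of 434 bp. In the 200 bp before the TSS, 2 of 42 collagen genes had a GATA word and none an AP-1 word, against 19.6% and 4.81% of 21938 protein-coding genes. Control words were found in 19.7% of these 21938 windows, much as GATA words were, and were not counted for the collagen genes alone. A word is a match of letters and not evidence of binding.

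**Figure D5:**
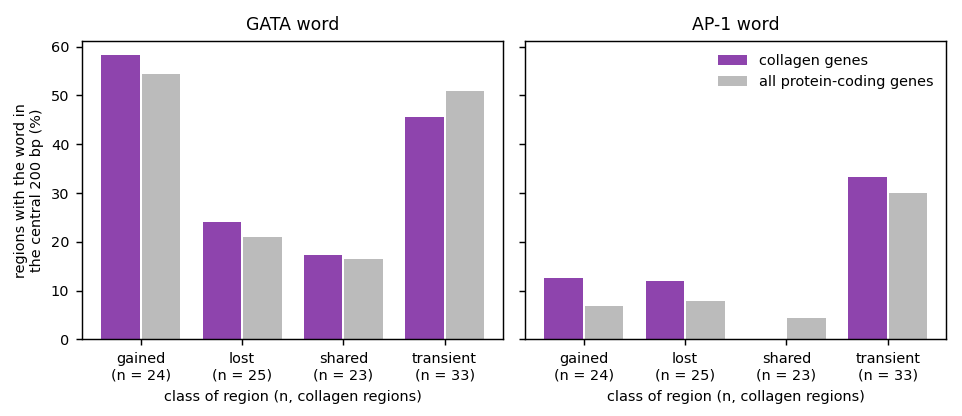
Percent of regions with a GATA word (left) or an AP-1 word (right) in the central 200 bp, by class of region, for collagen genes (purple) and all protein-coding genes (grey), with the number of collagen regions under each class. GATA words are most frequent in gained regions (58.3%) and AP-1 words in transient regions (33.3%), in each case near the grey bar.

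Collagen chains are hydroxylated and folded in the endoplasmic reticulum before they are secreted, trimmed and cross-linked, and other genes of that route were examined for comparison. Of 87 regions of 17 modification enzymes and chaperones, 22 were gained at 48 h (25.3%) and 11 were lost (12.6%). Of the 50 tested, 13 rose with time (26.0%) and 5 fell (10.0%). Plod2, the lysyl hydroxylase of collagen telopeptides, had 6 of its 8 regions gained, all of which rose. Serpinh1, the collagen chaperone HSP47, had 3 of 11 gained and 3 lost, and P4ha2, a prolyl hydroxylase subunit, had 3 of 5 gained and none lost. Of 71 regions of 13 secretion, processing and cross-linking genes 12 were gained (16.9%) and 11 lost (15.5%), and 5 of 54 tested rose (9.26%) and 6 fell (11.1%). Loxl2, a lysyl oxidase, had 3 of 5 gained, and Loxl4 had 3 of 9 lost. Of 38 regions of 9 receptor genes, such as the integrin gene Itga1 and the discoidin receptor gene Ddr1, 7 were gained (18.4%) and 4 lost (10.5%). Of the 25 tested, 2 rose and 2 fell (8.00% each). The gained and lost counts stand against 14.1% gained and 14.4% lost over all genes at 48 h. Those of the trend test stand against 12.5% rising and 10.6% falling among the regions of all protein-coding genes that were tested.

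Col4a1 and Col4a2, the collagen IV genes of the early basement membrane, had 15 regions, of which 7 were gained at 48 h (46.7%) and 2 lost, with 5 rising and 1 falling of 11 tested. The difference between that share and the 12.2% of the other collagen genes is between 2 adjacent genes and 42 genes and was not tested.

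With 2 h in place of 0 h as the reference, both sets of libraries came from serum medium with Dox begun. Gained collagen regions at 48 h then numbered 30 (15.3%, against 13.2% of all assigned regions) and lost ones 37 (18.9%, against 14.9%). Of the 24 regions gained against 0 h, 22 were also gained against 2 h, and of the 25 lost against 0 h, 15 were also lost against 2 h. This comparison was added after the data were seen.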

How the data were processed

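For each library the authors ran the ENCODE ATAC-seq pipeline and deposited the peaks that passed an irreproducible discovery rate of 0.05 between its own pseudoreplicates, after removal of blacklisted sites. Replicates were therefore kept apart. The value beside each deposited peak is a score whose scale is not given in the sources used here. It was used only to rank peaks within a list, and a region took its highest peak. The submitters' processing notes name mm10 (GRCm38) and deepTools. The study compared read counts, which peak lists do not hold, so absence from a list can mean accessibility under that list's threshold, and longer lists can come from deeper libraries.

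Peaks were merged, assigned to the nearest protein-coding TSS of GENCODE M21 within 50 kb and counted with Python 3.11.15, numpy 2.4.6, pandas 2.3.3 and pysam 0.24.0. Coordinates are GRCm38, counted from 1. Members, gene lists and tests were chosen with earlier results of these data known. Single regions were named for the 8 genes with most gained and lost regions, for start-site regions gained or lost, and, after values were seen, for others that stood out by timing or rank. Printed sequences were picked by earliest time and most GATA words, windows that touch a UTR were passed over, and the start-site pair was added. The trend test was tested on simulated data. Alternatives covered thresholds, merging, assignment, the reference time and left-out libraries.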

Additional observations from a re-analysis of the deposited data

How the results depend on the processing

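The main counts were 18, 16, 17, 30, 25 and 24 collagen regions gained and 7, 7, 11, 12, 21 and 25 lost at 2, 4, 8, 16, 24 and 48 h, 33 transient, 14 rising and 13 falling, with 17 genes that gained and 12 that lost a region at 48 h. Alternatives that kept all replicates or changed 1 choice gave 153 recomputed values. Of these, 106 stayed within 1.5 times the main count or within the exact binomial interval of the main share. The other 47 did not. Both numbers include shares of control words set beside those of GATA words, which are a contrast and not a change of processing. With a limit of 20 kb in place of 50 kb, gained regions numbered 7, 9, 9, 17, 16 and 11 from 2 to 48 h and lost ones 4, 5, 7, 12 and 12 from 4 to 48 h, with 14 transient, 8 rising, 6 falling and 8 genes with a gain. With genes of all biotypes competing for regions, gained regions numbered 8, 5, 9, 18, 15 and 12 and lost ones 4, 5, 6, 10 and 14 from 4 to 48 h, with 18 transient, 8 rising, 7 falling and 11 genes with a gain. Fewer regions were eligible in both cases by construction. When 1 library sufficed for a call and neither for its absence, gained regions numbered 28, 32, 40, 48, 46 and 42, lost ones 33, 25, 27, 24, 35 and 46, and genes with a loss 21. With equal lists of 50000 peaks gains were highest at 24 h (27, against 22 at 16 h). Taking regions within gene bodies and 5 kb upstream, of which 114 of 200 were also in the main set, gave 31 gained and 23 lost at 48 h, and 31 transient. GATA words in the whole region were found in 72.0% of lost and 43.5% of shared regions, and control words in 25.0% of gained and 21.2% of transient ones. Without replicate 1 or without replicate 2, regions gained at 2, 4, 8, 16, 24 and 48 h numbered at least 25, 30, 34, 48, 44 and 40 and at most 34, 36, 41, 53, 47 and 41, and regions lost at least 22, 22, 22, 21, 30 and 36 and at most 29, 22, 27, 21, 35 and 43. Transient regions ranged from 58 to 64, genes with a gain from 23 to 23 and genes with a loss from 18 to 20, because 1 library per time point then made the call, and GATA words from 40.0% to 48.8% of gained, 32.8% to 32.8% of transient, 18.6% to 25.0% of lost and 14.7% to 16.7% of shared regions. The trend could not be called with 1 library per time point, where the smallest p is 0.0571. Leaving out single libraries, chosen after seeing the data, gave 12 to 26 rising and 9 to 17 falling collagen regions. Over all regions these settings gave 7392 to 13785 rising and 7192 to 13392 falling.

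Libraries with the same replicate number did not deviate together, with correlations of -0.0152 to 0.0124 over 21 pairs of time points, so the numbers were not taken as pairs. With a replicate block the trend test called 12 rising and 9 falling collagen regions, of 7548 and 7263 over all regions. Counting changes within each replicate number alone gives the values without the other replicate. Without the 0 h libraries the trend test called 11 rising and 15 falling collagen regions, of 5282 and 8349 over all regions.

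Read depth per library was not used here, so a region that is not called was not detectable in that list, which does not show that it was closed. Groups of 2 libraries leave no room for a test of single libraries that stand apart. Assignment by distance does not show which gene a region acts on. Overlapping or head-to-head genes such as Col4a3 and Col4a4 share regions that the rule gives to 1 of them.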
